A study of Mus musculus with 28 samples.

Results

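Among 4621 wells that each held a mouse hepatocyte sorted together with an attached CD31+ cell, 146 wells carried at least 2 transcripts of 10 cell division genes. They are called division wells here. The 10 genes were Mki67, Top2a, Ccna2, Ccnb1, Cdk1, Birc5, Cdc20, Ube2c, Cenpf and Nusap1. Division wells were 3.16% of the pair wells (exact binomial interval 2.67% to 3.71%) and were set against the 4190 pair wells with 0 transcripts of these genes, and 285 wells with exactly 1 belonged to neither group. The whole series held 8341 wells, of which 3720 were single non-parenchymal cells. Counts come from MARS-seq, in which cells are sorted into plates and every mRNA molecule caught by its 3' end receives a random tag, the unique molecular identifier (UMI), so that copies made by amplification are counted once. The 17 pair libraries came from 3 C57BL/6 male mice, 2 libraries from 1 mouse aged 6 weeks and 15 from 2 mice aged 7 weeks. All mice were fasted for 2 hours before collagenase perfusion of the liver, and the labels name no transgene, injury or drug other than anaesthesia. The 11 libraries of single cells came from 2 mice aged 3 and 4 months.

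No source used here states which library or mouse a well came from, so the pair table is treated as 1 pooled sample. There are therefore no replicate errors and no p-values below: intervals are at 95%, cover counting error only and are too narrow wherever wells differ among themselves. Wells were compared within 17 blocks of consecutive well numbers, each block the size of a plate, which held 8 to 320 wells. The titles of the 17 pair libraries carry the same set of numbers as the blocks, 1 to 16 and 41. As nothing states that a block is the library of its number, blocks were not assigned to libraries or mice. Division wells occurred in 16 of the 17 blocks, and in the 15 blocks with over 100 wells their share lay between 1.37% and 5.35%. A ratio is the number of UMIs observed in division wells over the number expected from the wells with 0 of the same blocks at equal gene UMIs. Because a well holds RNA of a hepatocyte and of an attached cell, the counts do not say which of them held a transcript.

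A cell that divides first copies its DNA in S phase, then condenses and separates its chromosomes on a spindle in M phase, and last cuts its cytoplasm in cytokinesis. Transcripts of most M phase genes are scarce outside G2 and M phase. They are held down in resting cells by the DREAM complex and raised in G2 by B-MYB and FOXM1, which act through a promoter element named the cell cycle genes homology region, often paired with CCAAT boxes. Hepatocytes of the adult liver divide rarely, and in young mice part of their cycles end without cytokinesis and leave cells with 2 nuclei.

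To show this element, promoter stretches are given for 4 genes of the rule and for the 2 genes outside it with the largest folds, all from RefSeq on GRCm38.p6. They run 5′ to 3′ on the gene's strand from 120 bases before to 30 bases after the annotated start. Capitals mark TTTGAA, the core of the homology region, and CCAAT, each on either strand (TTCAAA and ATTGG on the other), and no 2 marked motifs overlap.
Cdk1 (chr10:69352883-69353032, minus strand): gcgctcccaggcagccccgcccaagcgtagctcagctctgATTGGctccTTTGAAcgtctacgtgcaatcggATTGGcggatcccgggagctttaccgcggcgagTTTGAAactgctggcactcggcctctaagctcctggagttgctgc
Cdc20 (chr4:118437314-118437463, minus strand): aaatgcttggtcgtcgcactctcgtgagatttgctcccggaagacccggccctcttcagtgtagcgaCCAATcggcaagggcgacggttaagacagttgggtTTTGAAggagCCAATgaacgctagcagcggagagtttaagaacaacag
Ube2c (chr2:164769809-164769958, plus strand): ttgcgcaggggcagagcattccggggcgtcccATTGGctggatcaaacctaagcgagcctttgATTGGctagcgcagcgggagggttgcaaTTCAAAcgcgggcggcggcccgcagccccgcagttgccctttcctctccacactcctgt
Top2a (chr11:99024160-99024309, minus strand): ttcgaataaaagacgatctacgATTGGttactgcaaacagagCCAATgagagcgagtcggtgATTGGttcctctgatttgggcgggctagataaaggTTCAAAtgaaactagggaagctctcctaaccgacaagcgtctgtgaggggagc
Prc1 (chr7:80294331-80294480, plus strand): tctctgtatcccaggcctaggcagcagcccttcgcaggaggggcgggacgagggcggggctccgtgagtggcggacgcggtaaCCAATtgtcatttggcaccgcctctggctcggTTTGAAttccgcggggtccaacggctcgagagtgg
Hmmr (chr11:40733408-40733557, minus strand): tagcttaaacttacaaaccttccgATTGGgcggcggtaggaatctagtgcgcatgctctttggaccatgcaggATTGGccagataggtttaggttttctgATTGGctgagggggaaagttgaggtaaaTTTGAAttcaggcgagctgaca

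In the full windows of 300 bases, 250 before to 50 after the start, TTTGAA was found for 6 of the 9 genes of the rule with an entry (Mki67, Top2a, Cdk1, Cdc20, Ube2c and Cenpf). It was found for 5466 of the 27025 genes of the table, or 20.2%. Of the 12 genes outside the rule with the largest folds, 10 had an entry and 7 of these held it. The CCAAT box was found for 7 of the 9 genes of the rule and 7 of the 10, against 41.1% of all genes. A match describes the letters of the window and is not a binding site.

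Division wells were chosen by the summed UMIs of the 10 genes, so the values of these genes are a description. Mki67, a coat protein of mitotic chromosomes and the standard marker of cycling cells, had 149 UMIs in 77 of the 146 division wells. Top2a, the topoisomerase that untangles sister chromatids, had 146 UMIs in 71 division wells, and both genes were found together in 47. Cdk1, the kinase that starts M phase, had 105 UMIs in 64 division wells, and 137 of its 242 UMIs fell in wells with exactly 1 UMI. Of the 169 UMIs of Mki67, 20 fell in such wells. Cenpf and Cenpe link chromosomes to the spindle, and Cenpf had 89 UMIs in 46 division wells. Ube2c and Cdc20, parts of the machinery that marks mitotic proteins for destruction, had 85 UMIs in 44 wells and 33 UMIs in 22 wells. Birc5, a subunit of the chromosomal passenger complex, had 63 UMIs in 47 wells. The cyclins that activate CDK1 had 58 UMIs of Ccna2 in 39 wells and 27 UMIs of Ccnb1 in 19 wells. Nusap1, which bundles spindle microtubules, had 34 UMIs in 28 wells.

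Most division wells were near the limit of the rule. The median held 3 UMIs of the 10 genes, and 53 wells just inside the limit held 2. Of these 53 wells, 24 had both UMIs from the same gene and 29 from different genes. The 285 wells just outside it held 1. At the other end, 16 wells from 12 blocks had at least 10 UMIs and together held 307 of the 789 UMIs. The richest well had 56 UMIs of all 10 genes among 26092 gene UMIs, and the next had 42 UMIs, also of all 10 genes. Counting genes instead of UMIs, 121 division wells held at least 2 of the genes and 24 held at least 5.

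Division wells were also deeper. They had a median of 12896 gene UMIs (quartiles 8901 and 19176), against 10094.5 in wells with 0 (quartiles 6410 and 15403). Spike-in RNA was close, with a median of 84 UMIs in both groups. Since a deeper well meets the rule more easily, each well was also thinned to 5000 UMIs before the rule was applied, which left out 633 shallower wells, 8 of them division wells and 603 with 0. Then 67 of 3988 wells met the rule (1.68%), and before thinning their median was 10958 gene UMIs, against 11709 in wells with 0. With the rule applied at equal counts, division wells were thus not the deeper group. Shares of wells in which a gene was found, given below, come from wells before thinning and are not matched for depth.

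Genes outside the rule that act in mitosis were far more abundant in division wells. All genes with at least 20 UMIs, observed and expected together, were compared, and of these 8643 genes 160 were at least 2-fold higher in division wells (1.85%) and 18 at least 2-fold lower (0.208%). The median log2 ratio of all of them was 0.06, and 61.8% lay above 0. Of the 8643, 263 reached 20 UMIs only through the division wells, and such genes had to be higher. With a minimum of 10 expected UMIs, which the division wells do not touch, 53 of 8485 genes (0.625%) were at least 2-fold higher and 39 (0.46%) at least 2-fold lower, and 59.9% were above a log2 ratio of 0. Counts of list members below are over every listed gene with a UMI, unless this second minimum is named. The shares above 0 given here cover only genes that passed a minimum. They are therefore no match for counts that include scarcer genes.

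The list of mitotic kinases, spindle and kinetochore genes summed to 488 UMIs per 1000000 in division wells and 68.5 expected per 1000000 (log2 ratio 2.83, interval 2.73 to 2.93). All 42 genes were above their expectation, and the list was higher in all 16 blocks, by 1.76 to 3.64 on the log2 scale. Among the 4 members with at least 10 expected UMIs, Spc24, Spc25, Cenpw and Ckap5, the median log2 ratio was 1.44, and 3 were at least 2-fold higher. Hmmr, which binds hyaluronan and spindle microtubules, was found in 28 of 146 division wells (19.2%), against 7 of 4190 wells with 0 (0.167%). It had 40 UMIs in division wells and 0.27 expected (log2 ratio 7.24, 6.06 to 8.64). Casc5, now named Knl1, the kinetochore scaffold, had 26 UMIs and 0.18 expected (7.20). Ckap2l, a spindle protein, had 41 UMIs in 30 division wells and 0.42 expected (6.62). Pbk, a mitotic kinase, had 22 UMIs and 0.22 expected (6.67). Cenpe, the kinesin that moves chromosomes to the spindle's middle, had 39 and 0.46 expected (6.39). Ckap2 had 28 and 0.39 expected (6.16), and Ndc80, which holds microtubules at the kinetochore, had 20 and 0.33 expected (5.93). No division well had more than 4 UMIs of Hmmr, so its total came from many wells.

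The scarcer kinases of M phase were in the same direction. Plk1 had 17 UMIs in 12 division wells and 0.25 expected. Aurkb, the kinase of the passenger complex, had 18 and 0.26 expected. Aurka, which matures the spindle poles, had 22 and 1.03 expected. Spc24 and Spc25, a pair of subunits of the NDC80 complex, were common in wells with 0 as well, and their ratios were smaller. Spc24 was found in 38.4% of division wells and 18.9% of wells with 0 (log2 ratio 1.40, 1.11 to 1.69), and Spc25 in 37.0% and 15.3% (1.49, 1.15 to 1.81).

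Cytokinesis genes stood highest of all lists, with 170 UMIs in division wells and 7.04 expected (log2 ratio 4.59, 4.28 to 4.91). All 10 genes were above their expectation, and the list was found in 50% of division wells and 3.60% of wells with 0. None of the 10 had at least 10 expected UMIs, so this count has no counterpart under that minimum. Prc1, which bundles the microtubules of the spindle midzone, had the largest fold among the genes compared. It had 57 UMIs in 38 of 146 division wells (26.0%), against 5 UMIs in 5 of 4190 wells with 0 (0.119%), a log2 ratio of 8.46 (7.16 to 10.1). Kif23 and Racgap1 form the centralspindlin complex, which builds the midzone and recruits the contractile ring's activator. Kif23 had 16 UMIs in 14 division wells and 0.15 expected, and Racgap1 had 27 in 19 wells and 0.56 expected. Ect2, that activator, had 14 and 1.95 expected. Anln, a scaffold of the contractile ring, had 12 and 0.31 expected, and Cep55, needed for the final cut, had 9 and 0.20 expected. Each of these genes was found in under 20% of division wells, Prc1 excepted.

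Chromosome condensation genes summed to 287 UMIs per 1000000 in division wells and 92.5 expected (log2 ratio 1.63, 1.51 to 1.76), with all 11 genes above their expectation. Of the 4 with at least 10 expected UMIs, 2 were at least 2-fold higher, against 0.625% of all genes under that minimum. The list was higher in all 16 blocks. Smc2 and Smc4 are the core of both condensins. Smc2 was found in 63 division wells (43.2%) and 6.04% of wells with 0, with 102 UMIs and 12.4 expected (3.05). Smc4 was found in 57.5% of division wells and 21.8% of wells with 0, with 184 UMIs and 47.0 expected (1.97). Ncapg, a subunit of condensin I, had 22 UMIs and 0.16 expected (7.14), while Ncapg2, its counterpart in condensin II, had 40 and 1.56 expected (4.68). Ncaph2, also of condensin II, was present in 27.2% of wells with 0 and had a ratio of 0.77. Esco2, which locks cohesin on replicated DNA, had 38 and 2.96 expected (3.68).

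Other G2 and M phase regulators summed to 253 UMIs, with 63.5 expected (log2 ratio 1.99, 1.80 to 2.19), and all 14 were above their expectation. Only 2 of them, Cks1b and Ccnf, had at least 10 expected UMIs, and 1 of these was at least 2-fold higher. Of all genes under that minimum, 0.625% were. Ccnb2, a cyclin of M phase, had 32 UMIs in 26 division wells and 1.55 expected (4.36). Cdca3, which helps destroy the mitosis inhibitor WEE1, had 49 and 1.82 expected (4.75), and Cdca2, which targets a phosphatase to chromosomes, had 20 and 0.65 expected (4.95). Cks1b, a small partner of cyclin-dependent kinases, had 48 and 23.0 expected (1.06). Ccnf, with 25 UMIs and 23.4 expected, and Wee1, with 5 and 4.11 expected, were close to their expectation.

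DNA replication genes were higher by a smaller factor, 890 UMIs per 1000000 in division wells and 398 expected (log2 ratio 1.16, 1.09 to 1.23). Of the 50 genes 49 were above their expectation. The exception was Mcm10, with 158 UMIs and 183 expected (-0.21, -0.45 to 0.02). The list was higher in all 16 blocks, by 0.29 to 1.98. Of the 20 members with at least 10 expected UMIs, 12 were at least 2-fold higher, against 0.625% of all genes under that minimum. Clspn, which relays the replication checkpoint, had 21 UMIs and 0.43 expected (5.60). Hells, a chromatin remodeller of S phase, had 30 and 1.91 expected (3.97). Mcm5, a subunit of the replicative helicase, had 33 and 3.05 expected (3.44). Rrm2, the regulated subunit of ribonucleotide reductase, was found in 42 division wells (28.8%) and 9.38% of wells with 0, with 106 UMIs and 19.4 expected (2.45). Pcna, the sliding clamp of the polymerases, was found in 29.5% and 16.9%, with 90 UMIs and 35.0 expected (1.36, 1.03 to 1.68).

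**Figure D1:**
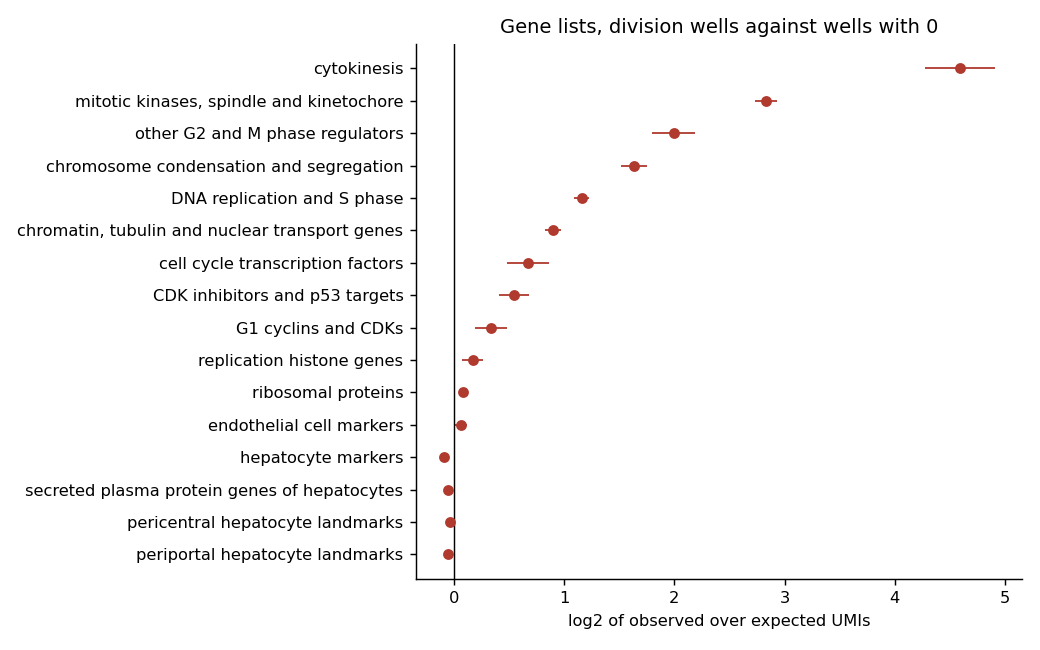
Log2 of observed over expected UMIs of each gene list in division wells against wells with 0, with points for the summed list and bars for the exact conditional 95% interval, which covers counting error only. Cytokinesis stands at 4.59 and the spindle list at 2.83, while the hepatocyte and endothelial lists lie within 0.1 of 0.

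Genes that act before S phase differed less. G1 cyclins and their kinases had 410 UMIs in division wells and 326 expected (log2 ratio 0.33, 0.18 to 0.48), and 6 of 8 were above their expectation, beside 61.8% of all genes compared. Ccne2 and Ccne1, the cyclins of S phase entry, had ratios of 1.35 and 1.13, and Cdk2, their kinase, had 0.76. Cdk4 had 0.53 and Ccnd1, the D-type cyclin that growth signals raise in hepatocytes, had 0.36 (0.10 to 0.61). Ccnd2 and Cdk6 were below their expectation at -0.20 and -0.11, with intervals that include 0. Cell cycle transcription factors summed to a ratio of 0.67 (0.48 to 0.86), with 12 of 13 above their expectation. Of the 6 with at least 10 expected UMIs, 5 were above their expectation, beside 59.9% of all genes under that minimum. None of the 6 was at least 2-fold higher. Foxm1, the activator of G2 and M phase genes, had 18 UMIs in 11 division wells and 0.44 expected (5.35). E2f1 had 21 and 5.63 expected (1.90), Lin9 and Lin54, subunits of the complex that binds the homology region, had 1.19 and 0.94, and E2f8, an atypical repressor, had 0.95. Myc was the exception, with 41 UMIs and 53.3 expected (-0.38, -0.86 to 0.07).

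Genes that restrain the cycle were not lower in division wells. CDK inhibitors, retinoblastoma family members and p53 targets summed to 463 UMIs and 317 expected (log2 ratio 0.55, 0.41 to 0.68). Cdkn1a, which encodes the inhibitor p21 and is a target of p53, was found in 62 division wells (42.5%) and 15.8% of wells with 0, with 99 UMIs and 37.5 expected (1.40, 1.08 to 1.70). Among other p53 targets, Btg2 had 107 UMIs and 79.2 expected (0.43, 0.14 to 0.72). Mdm2 at 0.04, Ccng1 at 0.03 and Gadd45a at -0.08 were close to 0. Cdkn2c, an inhibitor of CDK4 and CDK6, had 32 UMIs and 10.1 expected (1.67), and Cdkn1b and Trp53 had 0.65 and 0.59, with intervals that include 0. Rbl1, a pocket protein whose own level follows E2F activity, had 15 and 2.58 expected (2.54).

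Tubulin and chromatin genes that support division had 1687 UMIs and 906 expected (log2 ratio 0.90, 0.82 to 0.97), and 15 of the 16 were above their expectation, Hmgn2 excepted, with 0 UMIs and 0.08 expected. All 12 with at least 10 expected UMIs were above their expectation, 4 of them at least 2-fold. Tubb5 and Tuba1b, the main tubulins of cycling cells, were found in 68.5% and 54.8% of division wells, against 29.4% and 21.1% of wells with 0. Their ratios were 1.82 and 1.90. Stmn1, which destabilises microtubules, had 29 UMIs and 3.49 expected (3.06), and Hmgb2, a chromatin protein, had 47 and 6.32 expected (2.89). Replication histone genes differed little as a list (0.17, 0.07 to 0.26), and 25 of the 54 with a UMI were above their expectation. Only 6 of the 54 had at least 20 UMIs, observed and expected together. Most of the others had so few expected UMIs that single UMIs set their side. Of the 4 with at least 10 expected UMIs, 1 was above its expectation, beside 59.9% of all genes under that minimum. Hist1h2bc alone held most of the histone UMIs, at a level of 285 per 1000000 in division wells and 301 expected (-0.08, -0.19 to 0.04). The other histone genes, split off after the values were seen, had 401 UMIs and 257 expected (0.64, 0.50 to 0.79). Hist1h1b, a linker histone of S phase, had 25 UMIs and 0.40 expected (5.98), and Hist1h2ao had 68 and 2.98 expected (4.51). Near-identical copies of histone genes can share reads, and most mRNAs of this family lack the poly(A) tail that the libraries capture.

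Of the 160 genes at least 2-fold higher, 73 (45.6%) belonged to a cell cycle list, against 1.38% of the 8643 genes compared, many of them having reached the minimum only through the division wells. Under the minimum of 10 expected UMIs, 25 of the 53 genes at least 2-fold higher (47.2%) belonged to such a list, against 0.80% of the 8485 genes. Outside the lists, 2 genes were among the 12 largest folds. One was 2810417H13Rik, now named Pclaf, a partner of PCNA, with 25 UMIs and 0.34 expected (6.21). The other was D17H6S56E-5, a mouse locus for which the files give a symbol only. It had 183 UMIs in 64 division wells (43.8%) and up to 33 in a well, against 79 UMIs in 71 wells with 0 (1.69%). Its log2 ratio was 5.73 (5.34 to 6.13). A block was read only with at least 10 UMIs of the gene, observed and expected together. All 9 such blocks were higher, but they passed only through their division wells and had to be higher. A few others without a list were chosen after their values were seen. Ezh2, the histone methyltransferase of polycomb, had 36 UMIs and 13.8 expected (1.38), and Vim, the intermediate filament of mesenchymal and endothelial cells, was found in 39.7% of division wells and 18.8% of wells with 0 (1.55, 1.26 to 1.83). Tubb6, a tubulin, had 32 and 3.86 expected (3.05), and Tcf19 and Arl4c had 27 and 2.93, and 21 and 0.89.

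Levels of the lists were also read along the rule's own count. Levels by class, here and below, were pooled over blocks and are not compared within blocks as the ratios are. Across wells with 0, 1, 2, 3 to 4, 5 to 9 and at least 10 UMIs of the 10 genes, the spindle list had 70.3, 98.8, 177, 404, 585 and 1395 UMIs per 1000000. Cytokinesis genes had 3.30, 7.94, 18.4, 76.1, 110 and 203 per 1000000 in the same order. Both lists were thus already above the level of wells with 0 in wells with a single UMI. Replication genes had 402, 495, 620, 843, 1198 and 1203 per 1000000, with no difference between the last 2 classes beyond their intervals. Endothelial markers had no such order, with 1356, 1237, 1134, 1783, 1468 and 1337 per 1000000. Hepatocyte markers had 98747, 98804, 94701, 100922, 93845 and 75897 per 1000000, with no steady order before the lowest value in the 16 wells with at least 10.

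**Figure D2:**
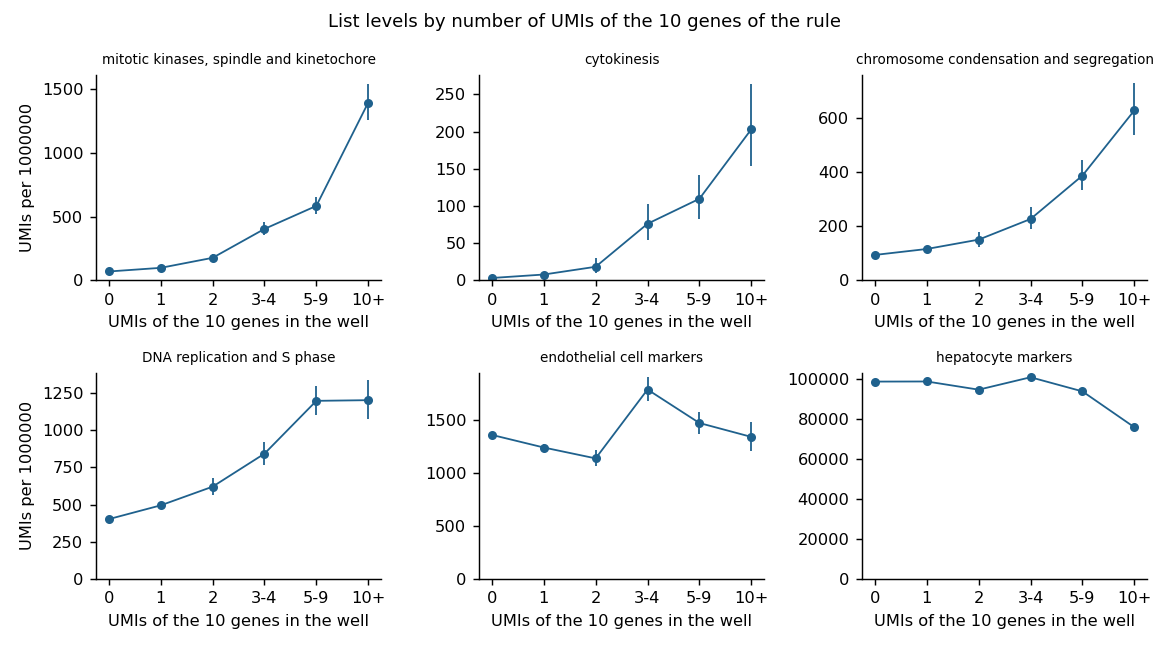
UMIs per 1000000 of 6 gene lists (vertical axes from 0) by the number of UMIs of the 10 genes of the rule in a well. Levels are pooled over blocks, with exact Poisson 95% intervals as bars. The 3 mitosis lists climb through every class, replication genes have 1198 and 1203 per 1000000 in the last 2 classes, and endothelial markers show no order.

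Replication and mitosis genes were also read well by well. The spindle and cytokinesis lists were summed as mitosis genes, and the 95th percentile of the wells with 0 served as a limit for each measure, 844 UMIs per 1000000 for replication and 278 for mitosis. At the median depth of division wells these limits amount to 10.9 and 3.59 UMIs, so single wells are placed by few transcripts. Above both limits were 42 of 146 division wells (28.8%), against 34 of 4190 wells with 0 (0.81%). Above the limit for mitosis alone were 54 division wells (37.0%), against 176 wells with 0 (4.20%). Above that for replication alone were 8 division wells (5.48%), close to the 176 wells with 0 (4.20%). Above neither were 42 division wells (28.8%), against 3804 wells with 0 (90.8%). The classes are ranges, not types: 16 division wells lay within 10% of the limit for replication and 10 within 10% of that for mitosis. Of the 56 wells with at least 5 UMIs of the 10 genes, 53 were above the limit for mitosis, 23 of them above both. Over the 146 division wells, Spearman's rho between the level of the 10 genes per gene UMI and the mitosis level was 0.73, and between replication and mitosis 0.36. All these levels have the gene UMIs of the well as divisor, so part of each rho may come from depth, which was not tested. The values describe wells that share libraries and differ in depth.

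A few wells carried large amounts of S phase transcripts. All 7 pair wells with at least 50 replication UMIs were division wells, whereas the highest well with 0 had 40. The richest, in block 14, had 95 replication UMIs (4750 per 1000000) and 23 mitosis UMIs, with 9 UMIs of the 10 genes. A well of block 11 had 90 (6623 per 1000000) with 21 mitosis UMIs. The well with the most UMIs of the rule, in block 15, had 80 replication and 83 mitosis UMIs, so both sets were high in the same well. Because a well holds 2 or more cells, levels of both stages in a well cannot be told apart from 2 cells in different stages.

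**Figure D3:**
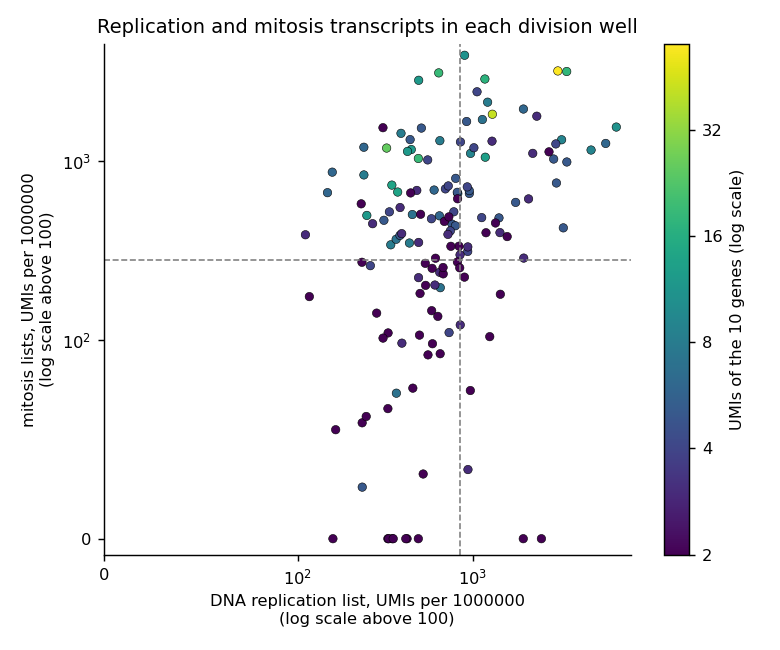
Each point is 1 of the 146 division wells, with the level of DNA replication genes on the horizontal axis and of mitosis genes on the vertical axis (UMIs per 1000000, log scale above 100) and colour for the UMIs of the 10 genes. Dashed lines are the 95th percentiles of wells with 0, and 54 wells lie above the mitosis line alone, 8 right of the replication line alone.

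Lists of liver functions differed little between division wells and wells with 0. Hepatocyte markers had a ratio of -0.09 and plasma protein genes of -0.06, and every division well had at least 131 UMIs of the hepatocyte markers. Xenobiotic metabolism stood at 0.01, the urea cycle at 0.01, fatty acid oxidation at -0.01, oxidative phosphorylation at 0.01 and acute phase genes at -0.01. Ribosomal protein genes were at 0.08, proteasome genes at 0.07, and nucleotide and folate genes at 0.10 (0.05 to 0.15). Fetal and progenitor genes had 17 UMIs and 15.9 expected, with an interval from -0.70 to 0.80. All these values lie beside a median of 0.06 over all genes.

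Markers of other cell types were read in the same wells. The 24 endothelial markers were found in every well of both groups, with a ratio of 0.06 (0.01 to 0.11) and 15 genes above their expectation. That count and ratio are close to those of all genes, of which 61.8% lay above 0 with a median of 0.06. A division well in block 2 held 241 endothelial UMIs, against 78 in the next division well and at most 102 in a well with 0, and without it the ratio was -0.04. Kupffer cell markers had 41 UMIs and 18.0 expected (1.19, 0.69 to 1.66), and 10 of the 11 with a UMI were above their expectation. Of the 41, 15 lay in a single well, without which the ratio was 0.54, and without block 5 it was 0.59 (-0.05 to 1.16). With at least 3 UMIs of the 10 genes required, Kupffer markers had a ratio of 0.30 (-0.52 to 1.02). Across wells with 0, 1, 2, 3 to 4, 5 to 9 and at least 10 UMIs of the rule, their level was 7.36, 11.5, 30.6, 23.6, 3.85 and 3.62 per 1000000, so the excess lay in wells near the limit of the rule. In all, 4 of 146 division wells (2.74%) had at least 2 such UMIs, against 46 of 4190 wells with 0 (1.10%). Without wells holding immune cell markers, the lists of the cell cycle kept their direction and stayed within their main intervals. T and NK cell markers had 3 UMIs, dendritic cell markers 7, and B cell and neutrophil markers were at 0 in division wells, with 4.61, 4.55, 2.75 and 0.61 expected in the same order. Cholangiocyte markers had 23 and 30.8 expected, and stellate cell markers 138 and 130.

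Along the liver lobule, division wells were more frequent in the middle than at either end. The position of a well was read from a score of pericentral over all hepatocyte landmark UMIs, each set divided by its mean, from 0 (portal) to 1 (central), and the landmarks are not among the genes of the rule. From the portal to the central quintile of wells, 16, 36, 41, 35 and 18 of 924 wells each were division wells, or 1.73%, 3.90%, 4.44%, 3.79% and 1.95%. In the middle 3 quintiles 112 of 2772 wells were division wells (4.04%, 3.34% to 4.84%), against 34 of 1848 in the outer 2 (1.84%, 1.28% to 2.56%), a ratio of 2.20 (1.48 to 3.33). Median depth was alike across quintiles, between 10228 and 10775 gene UMIs. After thinning to 5000 UMIs the shares were 0.50%, 2.26%, 2.63%, 2.26% and 0.75%, and the ratio of the middle to the outer quintiles was 3.80 (1.92 to 8.35). The median score itself hardly differed, 0.507 in division wells and 0.512 in wells with 0, while the quartiles of division wells lay closer together (0.331 and 0.631, against 0.226 and 0.678).

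**Figure D4:**
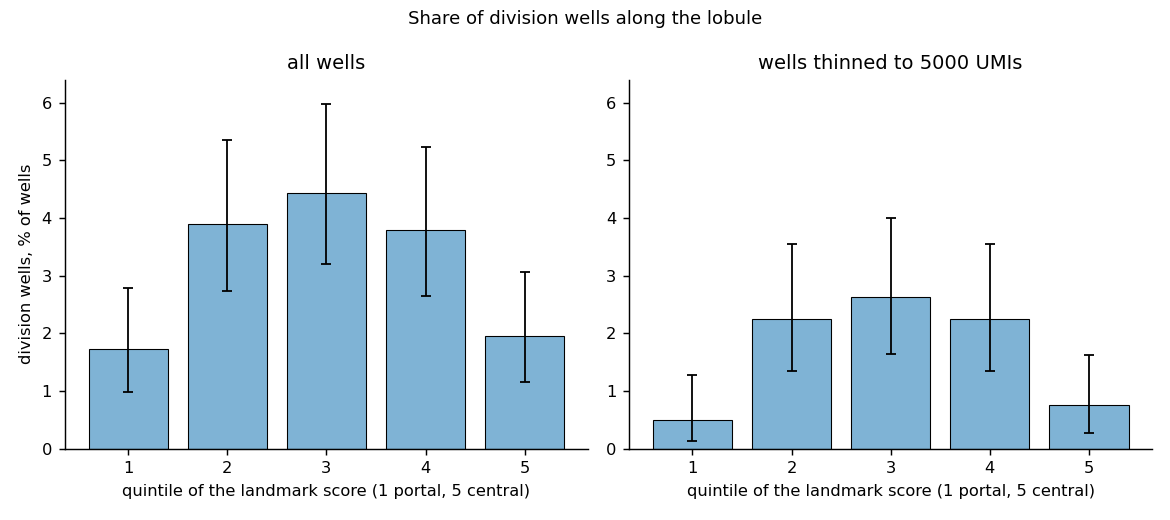
Percent of wells that were division wells in each quintile of the landmark score, from 1 (portal) to 5 (central), with exact binomial 95% intervals, for all wells at left and for wells thinned to 5000 UMIs at right. The 3 middle quintiles stand at 3.79% to 4.44% at left, above the outer quintiles at 1.73% and 1.95%.

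The same order was found in the 14 blocks that could be read. With quintiles taken within blocks, 14 blocks held at least 5 division wells, and in all 14 the share was higher in the middle 3 quintiles than in the outer 2. The middle shares ran from 2.13% to 7.82% and the outer ones from 0% to 4.35%. Blocks of the same mouse are not independent, and blocks were not assigned to mice, so the 14 blocks are not 14 replicates. Wells rich in the 10 genes showed the order more strongly than those with a single UMI. Of the 56 wells with at least 5 UMIs, 48 lay in the middle quintiles and 8 in the outer (ratio of shares 4.0, 1.88 to 9.79), and 15 of the 16 wells with at least 10 lay in the middle. Among wells with exactly 1 UMI the ratio was 1.14 (0.89 to 1.47).

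**Figure D5:**
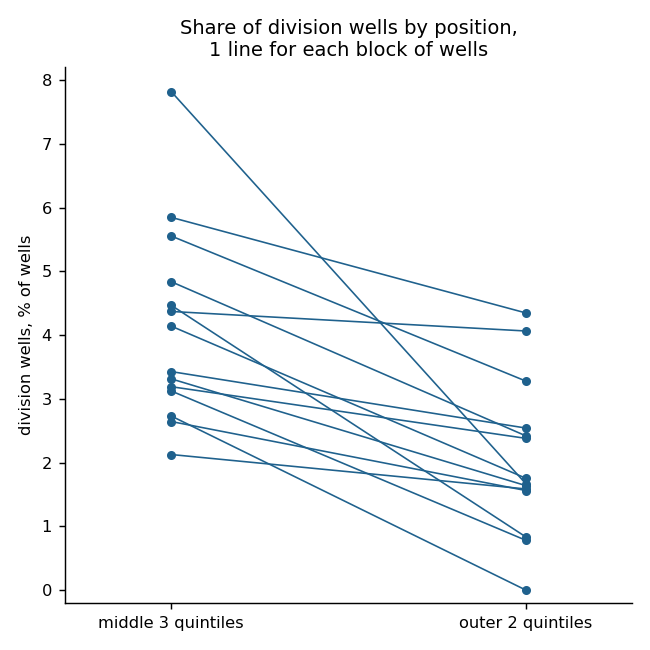
Percent of wells that were division wells in the middle 3 quintiles (left) and the outer 2 quintiles (right) of the landmark score, with quintiles taken within blocks and 1 line for each of the 14 blocks with at least 5 division wells. Every line is lower at right, with middle shares of 2.13% to 7.82%.

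Genes the rule did not use were read along the lobule too. The replication list in all wells had 370, 455, 458, 436 and 419 UMIs per 1000000 from the portal to the central quintile. Cytokinesis genes had 3.15, 6.65, 8.06, 8.83 and 5.86 per 1000000. In wells with 0 the cytokinesis level was low throughout, at 2.33, 3.20, 2.50, 3.91 and 4.60 per 1000000, with no middle maximum. Replication genes in wells with 0 had 365, 427, 414, 401 and 403 per 1000000, lowest in the portal quintile.

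Several genes of either end of the lobule were lower in division wells. They are landmarks of the position score, so their values are tied to the order by quintile and are not separate support for it. Among pericentral landmarks Glul, glutamine synthetase of the innermost hepatocytes around the central vein, had 381 UMIs in division wells and 690 expected (log2 ratio -0.86, -1.01 to -0.71) and was lower in 15 of 16 blocks. Oat, ornithine aminotransferase, had 541 and 833 expected (-0.62), lower in 14 of 16 blocks, and Slc1a2, a glutamate transporter of the same cells, had 44 and 114 expected (-1.38). Among periportal landmarks Sds, serine dehydratase, had 198 and 307 expected (-0.63), Hal, histidine ammonia lyase, had 142 and 218 expected (-0.62), and Cyp2f2, a cytochrome P450, had 1655 and 2296 expected (-0.47), lower in 13 of 16 blocks. Several other landmarks were close to 0, among them Cyp2e1 at -0.01, Cyp1a2 at 0.01, Cyp7a1 at 0.01, Lect2 at 0.09, Arg1 at 0.06 and Ass1 at 0.07. The landmark lists as wholes were at -0.04 (pericentral) and -0.06 (periportal), with 10 and 11 of their 15 genes below their expectation. Among members with at least 10 expected UMIs, 5 of 14 pericentral and 4 of 15 periportal genes were above their expectation. Of all genes under that minimum, 59.9% were above. Glul was found in 76.0% of division wells, against 70.9% of wells with 0, shares that are not matched for depth. A few wells held much of it: the 42 richest wells with 0, with at least 85 UMIs each, held 41.2% of the Glul UMIs of their group. None of the 146 division wells had 85, which allows a share of up to 2.05%, against 1.0% of wells with 0.

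Outside the landmarks, the genes with the lowest ratios included targets of interferon, of which no list was read. Ifit1 and Rsad2, antiviral genes that interferon induces, had 13 UMIs and 34.9 expected (log2 ratio -1.42, -2.34 to -0.64) and 17 and 37.7 expected (-1.15). Cxcl9, a chemokine that interferon gamma induces, had 43 and 86.0 expected (-1.0). Ifit1 was found in 6.16% of division wells, against 7.09% of wells with 0, Rsad2 in 10.3% against 7.49%, and Cxcl9 in 14.4% against 11.1%. These shares are not matched for depth either, and division wells were deeper. Their UMIs in wells with 0 were concentrated, with 69.2%, 72.1% and 67.8% in the 42 richest wells. The others named by the same rule were Arnt (-1.14), Pdcd11 (-1.0), Daglb (-0.99), Adssl1 (-0.99), Tmem170b (-0.94), Rbks (-0.93), Zfp110 (-0.91) and Snx15 (-0.89). They had 10 to 30 UMIs each in division wells and were less concentrated, with 9.88% to 18.6% of the UMIs of wells with 0 in the 42 richest wells.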

How the data were processed

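As deposited by the authors, both tables hold raw counts, the UMIs of each gene symbol in each well, without scaling. The labels' protocols name MARS-seq as the library method. The submitters' processing notes name bcl2fastq 2.15.0.4 and the genome mm9. Aligner and gene models: not given in the sources used here, as neither labels nor headers name them. The 92 ERCC spike-in rows (0.715% of pair UMIs) were left out. Pair wells held 2423 to 49311 gene UMIs.

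Levels are per 1000000 gene UMIs with exact Poisson intervals. Expected UMIs were summed over blocks from the wells with 0, and ratios have exact conditional binomial intervals (Clopper-Pearson, 95%). All intervals cover counting error only. UMIs count molecules at the 3' end, so levels were not scaled by length. The landmark score needed 20 landmark UMIs, which 4620 wells had. Ratios were checked on simulated Poisson counts, with the same gene means in every block and no spread among wells. That check cannot speak to differences between blocks or to intervals that are too narrow because wells differ. Of 548 list genes in 39 lists, 1 was not found and 4 were found by an older symbol. Python 3.11.15, NumPy 2.4.6, SciPy 1.17.1 and pandas 2.3.3 were used.

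The members, lists and comparisons were chosen with earlier results of these data known. The genes named were the 12 largest and 12 smallest ratios with at least 20 UMIs, observed plus expected. They also needed an interval that excludes 0, and the same direction at matched depth and without the division well richest in the gene. No well with 0 was left out, so this last condition was little check on lower genes. Higher genes needed UMIs in at least 5 division wells and lower ones at least 20 expected UMIs. Up to 4 genes per list with at least 20 UMIs and the largest ratios, all genes of the rule, and list members picked for their role after their values were seen were added. No doublet caller was run, since wells were sorted pairs.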

Additional observations from a re-analysis of the deposited data

Results flagged for a closer look

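The single-cell table, which the comparison of pairs does not use, also held division transcripts. Among its 2692 wells with at least 300 gene UMIs the 10 genes had 313 UMIs, or 127 per 1000000 (113 to 142), against 18.9 per 1000000 in pairs (17.7 to 20.01). At least 2 UMIs were found in 47 wells (1.75%, 1.29% to 2.32%), at a median depth of 710 gene UMIs over all 2692 wells. The 895 wells with at least 5 endothelial marker UMIs had 75.9 per 1000000 (55.8 to 101) and 6 wells with at least 2. The 1616 wells with immune cell markers had 147 per 1000000 (130 to 166) and 39 wells with at least 2. The gene UMIs of a pair well include those of its hepatocyte, so the levels of the tables have unlike totals and do not compare rates of division. Single cells also came from older mice and a different sort than pairs, so age, sort and cell mix cannot be told apart.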

How the results depend on the processing

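No paired analysis was possible because the values come from no test and wells carry no stated label of mouse or library. Block numbers equal the numbers in the library titles, a link that was seen and left unused. The 9 cell cycle lists kept their direction under every setting run, and so did the higher share of division wells in the middle quintiles. Values below are log2 ratios unless a unit is given, and the cause of each shift was not tested.

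With at least 3 UMIs required there were 93 division wells. The replication, spindle, cytokinesis, condensation and other G2 and M lists were then at 1.42, 3.33, 5.105, 2.01 and 2.39, CDK inhibitors at 0.69, transcription factors at 0.89 and chromatin and tubulin at 1.17. Pericentral and periportal landmarks were at -0.072 and -0.099, plasma proteins at -0.070 and endothelial markers at 0.24. The share of division wells was 0.87%, 2.71%, 2.38% and 0.87% in quintiles 1, 2, 4 and 5. With UMIs of at least 2 different genes, replication was at 1.24, spindle 3.05, condensation 1.83, G2 and M 2.20, chromatin and tubulin 1.0, pericentral landmarks -0.076, plasma proteins -0.050, endothelial markers 0.15 and xenobiotic metabolism -0.0055.

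The 285 wells with exactly 1 UMI, set against wells with 0, gave 12 genes at least 2-fold higher. The lists were at 0.32 (replication), 0.51 (spindle), 1.25 (cytokinesis), 0.31 (condensation), 0.31 (G2 and M), 0.10 (G1), 0.19 (CDK inhibitors), 0.12 (factors) and 0.12 (chromatin and tubulin). Periportal landmarks were at 0.025, plasma proteins -0.014, endothelial markers -0.13 and xenobiotic metabolism -0.028. Slc1a2 was at 0.41, Rsad2 0.0099, Pdcd11 0.31, Rbks 0.0028 and Snx15 0.31. The shares by quintile were 6.06%, 6.06%, 6.39%, 7.03% and 5.30%, a middle to outer ratio of 0.19.

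Thinned to 5000 UMIs, 67 wells met the rule and 55 genes were at least 2-fold higher. Replication was at 1.54, spindle 3.44, cytokinesis 5.24, condensation 2.31, G2 and M 2.77, chromatin and tubulin 1.39, the landmarks -0.076 (pericentral) and -0.11 (periportal), and Kupffer markers -0.35. Rbks was at 0.11. The depth ratio was -0.096, the shares by quintile 0.50%, 2.26%, 2.63%, 2.26% and 0.75%, and the middle to outer ratio 1.93.

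The small ratios of other lists moved with most settings. Matched for depth, pericentral landmarks were at -0.058, plasma proteins at -0.054 and endothelial markers at 0.18. Without blocks, pericentral landmarks were at -0.072 and plasma proteins at -0.049. Scaled to the median of all genes, a shift of 0.06, pericentral landmarks were at -0.099, periportal -0.12, plasma proteins -0.12, xenobiotic metabolism -0.045, lipogenesis -0.029 and endothelial markers 0.0029. With the 20 most abundant genes left out of the totals they were at -0.066, -0.082, -0.085 and, for xenobiotic metabolism, -0.011. Without wells holding immune markers, pericentral landmarks were at -0.015, endothelial markers at -0.048 and Kupffer markers at -0.33. Without the richest well, endothelial markers were at -0.042. Acute phase genes, at -0.007 in the main comparison, were at 0.072 without blocks, 0.050 without block 2, -0.071 with at least 3 UMIs required and -0.065 scaled to the median of all genes. Compared within landmark tertiles, an alternative chosen after seeing the data, pericentral landmarks were at -0.084, periportal -0.0072, plasma proteins -0.047 and xenobiotic metabolism -0.010. Without blocks 1 and 2, also added later, plasma proteins were at -0.054 and endothelial markers at -0.044.

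Counts of genes depend on the minimum: 1607 at least 2-fold higher and 5868 lower without a minimum, 42 and 4 with 50 UMIs, and 53 and 39 with 10 expected UMIs, added later.

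Leaving out each block in turn gave 130 to 146 division wells, 134 to 161 genes at least 2-fold higher and 16 to 24 lower. Ranges were 1.10 to 1.20 for replication, 2.75 to 2.88 for the spindle list, 4.42 to 4.67 for cytokinesis and 1.04 to 1.26 for the middle to outer ratio. They were -0.078 to -0.012 for pericentral (-0.013 without block 8) and -0.077 to -0.024 for periportal landmarks, -0.069 to -0.052 for plasma proteins (-0.053 without block 9) and -0.044 to 0.101 for endothelial markers, the lowest without block 2. Without block 4 xenobiotic metabolism was at -0.0053. Transcripts of a few UMIs per well limit every statement on single wells, and a well without a UMI may still hold a dividing cell.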
